A study of Mus musculus with 29 samples.

Results

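The 10 genes described here encode 9 glycosyltransferases and 1 chaperone that build the glycans of the colonic mucosa: Fut2, Fut4, Fut8, B4galnt2, C1galt1, C1galt1c1, Gcnt3, B3gnt3, B3gnt7 and St6galnac6. They were chosen by name, as the rows of a raw count table whose Ensembl identifier carries one of these symbols, and are 10 of 54532 genes in that table. Each symbol was found once, and all 10 genes passed the minimum mean count of 3 over all mice that left 18616 genes for testing.

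RNA of whole colon was sequenced in 29 mice to compare 6 models of colitis with 3 control groups. TRUC mice (n = 4), labelled Balb/C Tbx21-/- x Rag2-/-, were untreated and were compared with untreated Balb/C Rag2-/- mice (n = 3). Both groups lack Rag2, and with it T and B cells. Another 3 models, labelled Balb/C, were compared with untreated Balb/C wild-type mice (WT control, n = 3). DSS mice (n = 3) drank 3% dextran sulfate sodium for 5 days and were culled at day 10. DNBS mice (n = 3) received 3 mg of dinitrobenzene sulfonic acid rectally in 200 µl of 50% ethanol. IL-10 deficiency mice (n = 4) are labelled as given an IL-10 blocking antibody, the protocol names 750 µg of an antibody against the IL-10 receptor for up to 4 weeks, and the methods of the study name Il10-/- mice. Both remaining models are labelled C57BL/6 Rag1-/- and were compared with untreated mice of that label (Rag1 control, n = 3). TCT mice (n = 3) received naive CD4 T cells, in a protocol that names Rag2-/- recipients, and were culled after 6 to 8 weeks, and anti-CD40 mice (n = 3) received 50 µg of agonistic antibody and were culled after 7 days. Ages of the mice and the position of the sampled piece along the colon are not stated in the labels. The count column of TRUC mouse 4 is headed TRUC_8W, and what this means is not given. For mouse colon RNA put on microarrays, the methods of the study name the distal region.

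Some libraries went against their labels. H2-Ea-ps, the class II gene that mice of the Balb/C haplotype transcribe and C57BL/6 mice do not, had 787 to 1011 counts in the libraries labelled Rag1 control and 2262 to 2512 in those labelled anti-CD40, both labelled C57BL/6. It had 784 to 1462 counts in the Rag2 controls and 2981 to 3956 in TRUC. It had at most 1 count in every library of WT control, DSS, DNBS and IL-10 deficiency, all labelled Balb/C, and 0 in the TCT libraries. The methods of the study, unlike these labels, name C57BL/6 mice for DSS and list purchased C57BL/6 wild-type mice. Rag2 transcripts, which can persist from a disrupted gene, had 6 to 20 counts in the libraries labelled Rag1 control, 48 to 99 in those labelled anti-CD40, 15 to 25 in the Rag2 controls, 57 to 94 in TRUC and 0 in TCT. Rag1 had 20 to 33 counts in TCT and at most 4 in each other library. The TCT libraries therefore differed from the libraries labelled Rag1 control in these transcripts as well as in treatment, and what follows in that comparison from either cannot be told apart. TCT was therefore also set against the WT controls, which had the TCT libraries' level of H2-Ea-ps, and the libraries labelled anti-CD40 against the Rag2 controls.

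A second departure concerned the IL-10 deficiency group. The HOX genes that mark the distal end of the colon, a list chosen after their values were seen, were nearly absent from mouse 4, with 0.209 CPM (the count relative to scaled library size) of Hoxb13, 0.732 CPM of Hoxa13, 0.314 CPM of Hoxd13 and no count of Hoxd12. Mouse 3 of the group had 7.89 CPM of Hoxd13 and 0.772 CPM of Hoxd12, with 344 CPM of Hoxb13. The other 27 mice had 87.2 to 600.3 CPM of Hoxb13 and 117 to 413 CPM of Hoxd13. Within that range DSS mice were the lowest for Hoxb13, with 195, 245 and 87.2 CPM against 445, 408 and 575 CPM in the WT controls. Of the 4 HOX genes 1 was called lower in DSS, and their median log2 fold change there was -1.08. The position sampled is not in the labels, and its part in the results was not tested. The members' values in IL-10 deficiency against the WT controls are therefore given with and without its mouse 4. Those of B4galnt2 and B3gnt7 are also given without mice 3 and 4.

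Glycans are built in the Golgi by transferases that each add a single sugar, so the order and level of these enzymes set what a mucin or a surface glycoprotein displays. O-glycans of mucins start with N-acetylgalactosamine, are extended through the core 1 galactosyltransferase C1GALT1 with its chaperone C1GALT1C1 (Cosmc), are branched by enzymes such as GCNT3, lengthened by N-acetylglucosaminyltransferases such as B3GNT3 and B3GNT7, and capped by fucose, sialic acid or N-acetylgalactosamine. In the gut, the fucose added by FUT2 is known as a carbon source and an attachment site for bacteria, and its synthesis is known to be induced in epithelium by IL-22.

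Depth was alike, with 10725564 to 14977094 counts per mouse. The members were read well above the floor of 3 counts, which was 0.179 to 0.314 CPM. In libraries scaled by TMM (trimmed mean of M values), the sum of 10 epithelial markers was 11810 to 13827 CPM in the WT controls, 17236 to 23309.8 in IL-10 deficiency, 8305 to 11062 in DSS and 12458 to 15852 in DNBS. It was 12921 to 14416 CPM in the libraries labelled Rag1 control, 14356 to 16257 in TCT, 15744 to 17079 in those labelled anti-CD40, 14797 to 15912 in the Rag2 controls and 17108 to 18494 in TRUC. No marker of this list was at 0 in any group. Markers of other cells moved in all 6 models. Of 6 neutrophil markers tested, 5 or 6 were higher in every model, and of 8 monocyte and macrophage markers 2 in DNBS and 4 to 8 in the others. All 8 T cell markers were higher in TCT and IL-10 deficiency, 6 in DSS, 5 in TRUC and 0 in DNBS and the libraries labelled anti-CD40. Of 8 B and plasma cell markers, 5 were higher and 1 was lower in DSS, 3 were higher in IL-10 deficiency and 1 in TCT. In DNBS 0 of them were higher and 2 were lower. Of 8 absorptive colonocyte markers, 5 were lower and 2 higher in TRUC, and 4 were lower and 1 was higher in TCT. Of 8 goblet cell markers, 3 were lower and 2 higher in TRUC, and 3 were lower and 0 higher in TCT. In IL-10 deficiency 4 goblet cell markers were higher and 1 was lower. The parts of these cells in the results were not tested. Smooth muscle markers were lower in IL-10 deficiency (7 of 8, and 6 without mouse 4) and TRUC (4 of 8). Their summed level was 2757 to 5172 CPM in IL-10 deficiency against 6891 to 8476 in the WT controls, and 3081 to 4552 CPM in TRUC against 6396 to 7008 in the Rag2 controls. RNA of whole tissue cannot tell fewer cells of a type from less RNA per cell, so each member is also given relative to the epithelium list at the end.

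Of 60 tests of a member in a model, 22 called the member higher, 2 lower and 36 neither, at an adjusted p under 0.05 over all genes (edgeR's quasi-likelihood test, Benjamini-Hochberg). With an unadjusted p under 0.05, edgeR gave 2 members lower in each of TRUC and TCT and 0 in the other 4 models. At an adjusted p under 0.05, DESeq2 on each model and its control called 3 lower in TRUC, 2 in TCT, 1 in DSS and 0 in the other 3. Shares of all genes under these 2 criteria are not given here, and those below belong to the adjusted p of the fit of all 9 groups. In 22 of the 24 calls every mouse of the model lay on the same side of every control mouse. The share of all called genes without such overlap is not given here, so this count cannot be set beside it. In TRUC, 5 members were higher and 1 was lower, beside 22.4% of all genes tested that were higher and 23.4% that were lower. DSS had 1 member higher and 0 lower, beside 17.7% and 16.3% of all genes. DNBS had 2 higher and 0 lower, beside 3.95% and 2.21%. IL-10 deficiency had 8 higher and 0 lower, beside 27.2% and 26.1%. TCT had 1 higher and 1 lower, beside 16.1% and 14%, and the libraries labelled anti-CD40 had 5 higher and 0 lower, beside 10.9% and 10.7%. The 10 members had a median log2 fold change of 0.87 in IL-10 deficiency, 0.47 in the libraries labelled anti-CD40, 0.38 in DNBS, 0.28 in TRUC, -0.00031 in DSS and -0.066 in TCT, and the median of all genes lay between -0.030 and 0.024. The counts in DSS and TCT were near the shares of all genes.

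**Figure D1:**
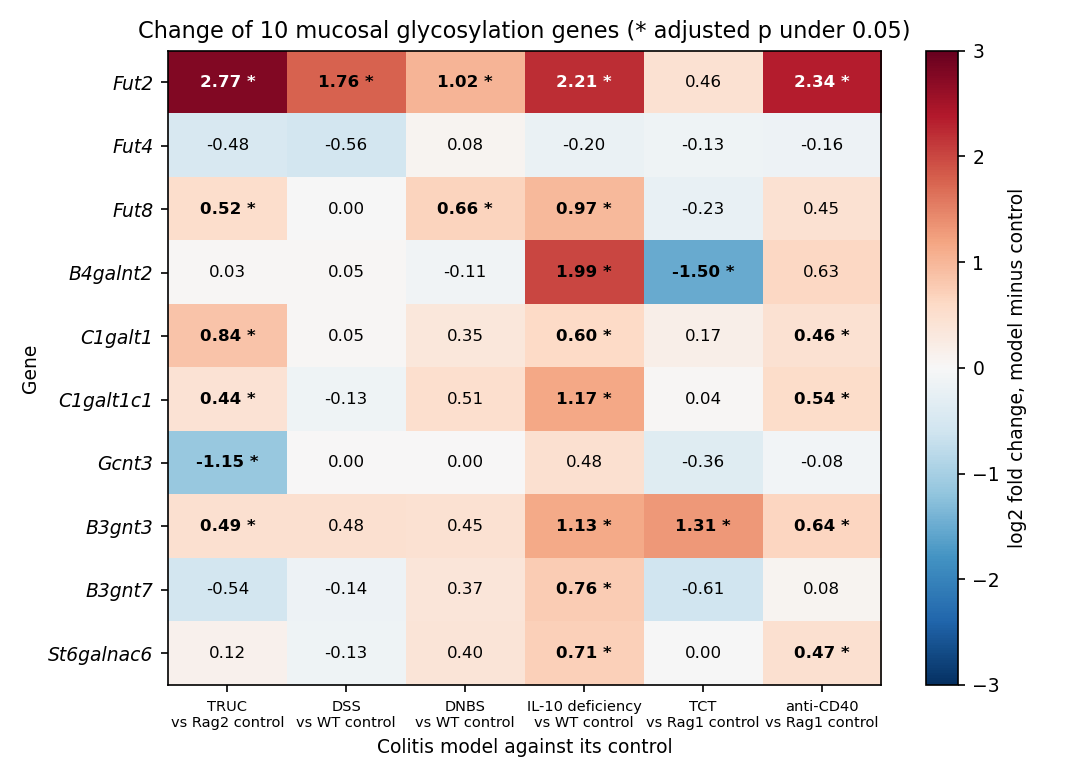
Log2 fold change of the 10 members (rows) in the 6 colitis models against their controls (columns), with an asterisk and bold type where the adjusted p was under 0.05. Fut2 has an asterisk in every column but TCT, and Fut4 in none.

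Fut2 (ENSMUSG00000055978, GRCm38 chromosome 7, 45648591 to 45666394, minus strand) encodes the α1,2-fucosyltransferase that makes the H antigen on mucosal glycans, and was the member that rose in most models. The 4 TRUC mice had 1145, 1272, 1175 and 1147 CPM, and the 3 Rag2 controls had 189, 206 and 126 CPM. The libraries labelled anti-CD40 had 1247, 1342 and 976 CPM, against 168, 165 and 369 CPM in those labelled Rag1 control. Every mouse of both models was above every control mouse, and the log2 fold change was 2.77 ± 0.29 (SE, adjusted p = 2.54e-07) in TRUC and 2.34 ± 0.29 (SE, adjusted p = 1.74e-05) in the libraries labelled anti-CD40. The 4 IL-10 deficiency mice had 363, 554, 507 and 771 CPM, the DSS mice 389, 439 and 379 CPM and the DNBS mice 153, 233 and 333 CPM, against 113, 104 and 139 CPM in the WT controls. All 10 of these mice were above the WT controls, although DNBS mouse 11 was only slightly so. The log2 fold change was 2.21 ± 0.28 (SE, adjusted p = 2.17e-06) in IL-10 deficiency and 2.00 without mouse 4 (adjusted p = 7.07e-06), 1.76 ± 0.29 (SE, adjusted p = 8.38e-05) in DSS and 1.02 ± 0.28 (SE, adjusted p = 0.0350) in DNBS. The DNBS call was lost without DNBS mouse 14, DNBS mouse 16 or any 1 of WT control mice 1, 2 and 4, with a log2 fold change of 0.71 to 1.15 and an adjusted p of 0.0558 to 0.223.

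In TCT the Fut2 call turned on the control mice. The TCT mice had 314, 306 and 348 CPM, above 2 of the libraries labelled Rag1 control and below the third, mouse 4 with 369 CPM. Fut2 had a log2 fold change of 0.46 ± 0.28 (SE, adjusted p = 0.224), and without that control mouse it was 0.96 (adjusted p = 0.0107). Against the WT controls it was 1.45 (adjusted p = 0.000671). Ordered by mean, Fut2 ran from 119 ± 18.5 CPM (SD, n = 3) in the WT controls through the Rag2 controls, the libraries labelled Rag1 control, DNBS, TCT, DSS and IL-10 deficiency to 1185 ± 59.6 CPM (SD, n = 4) in TRUC and 1188 ± 189.7 CPM (SD, n = 3) in the libraries labelled anti-CD40. Neighbours in this order overlapped, except for TCT below DSS and IL-10 deficiency below TRUC. Sec1, a neighbouring fucosyltransferase gene with which 2.9% of the 50-base windows of Fut2 exons are shared, was at 3.87 ± 0.373 CPM in TRUC and at most 2 counts in every Rag2 control mouse, so that its reads were few beside those of Fut2.

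B3gnt3 (ENSMUSG00000031803, chromosome 8, 71690756 to 71701789, minus strand) encodes a β1,3-N-acetylglucosaminyltransferase that extends core 1 O-glycans, and was called higher in 4 models. The IL-10 deficiency mice had 552, 611, 459 and 632 CPM against 239, 252 and 283 CPM in the WT controls. The TCT mice had 340.3, 395 and 443 CPM and the libraries labelled anti-CD40 223, 295 and 221 CPM, against 181, 126 and 169 CPM in those labelled Rag1 control. There was no overlap between model and control in these 3 comparisons. B3gnt3 had a log2 fold change of 1.13 ± 0.18 (SE, adjusted p = 2.51e-05) in IL-10 deficiency, 1.06 without mouse 4 (adjusted p = 0.000101), 1.31 ± 0.19 (SE, adjusted p = 1.24e-05) in TCT and 0.64 ± 0.19 (SE, adjusted p = 0.0180) in the libraries labelled anti-CD40. The latter call was lost without anti-CD40 mouse 7 (0.49, adjusted p = 0.132) or Rag1 control mouse 3 (0.50, adjusted p = 0.108). Against the WT controls the TCT mice were higher by 0.60 on the log2 scale (adjusted p = 0.0173).

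The B3gnt3 rise in TRUC was smaller and the mice overlapped. They had 221, 277, 226 and 185 CPM against 142, 188 and 157 CPM in the Rag2 controls, with mouse 5 below the highest control. This gave a log2 fold change of 0.49 ± 0.18 (SE, adjusted p = 0.0278), and the call was lost without TRUC mouse 3 (0.38, adjusted p = 0.102), Rag2 control mouse 1 (0.40, adjusted p = 0.125) or Rag2 control mouse 4 (0.46, adjusted p = 0.0800). DSS mice had 322, 416 and 341 CPM, all above the WT controls, with a log2 fold change of 0.48 ± 0.19 (SE, adjusted p = 0.0509) that was called by edgeR and DESeq2 on the 2 groups (0.48, adjusted p = 0.0380, and 0.47, adjusted p = 0.0170) and without DSS mouse 5 (0.54, adjusted p = 0.0469). DNBS mice had 249.7, 393 and 414 CPM with a log2 fold change of 0.45 ± 0.19 (SE, adjusted p = 0.142), called without DNBS mouse 11 (0.64, adjusted p = 0.0250). B3gnt3 also differed between untreated groups, with a log2 difference from the WT controls of -0.67 ± 0.19 (SE, adjusted p = 0.0254) in the Rag2 controls and -0.70 ± 0.19 (SE, adjusted p = 0.0149) in the libraries labelled Rag1 control.

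**Figure D2:**
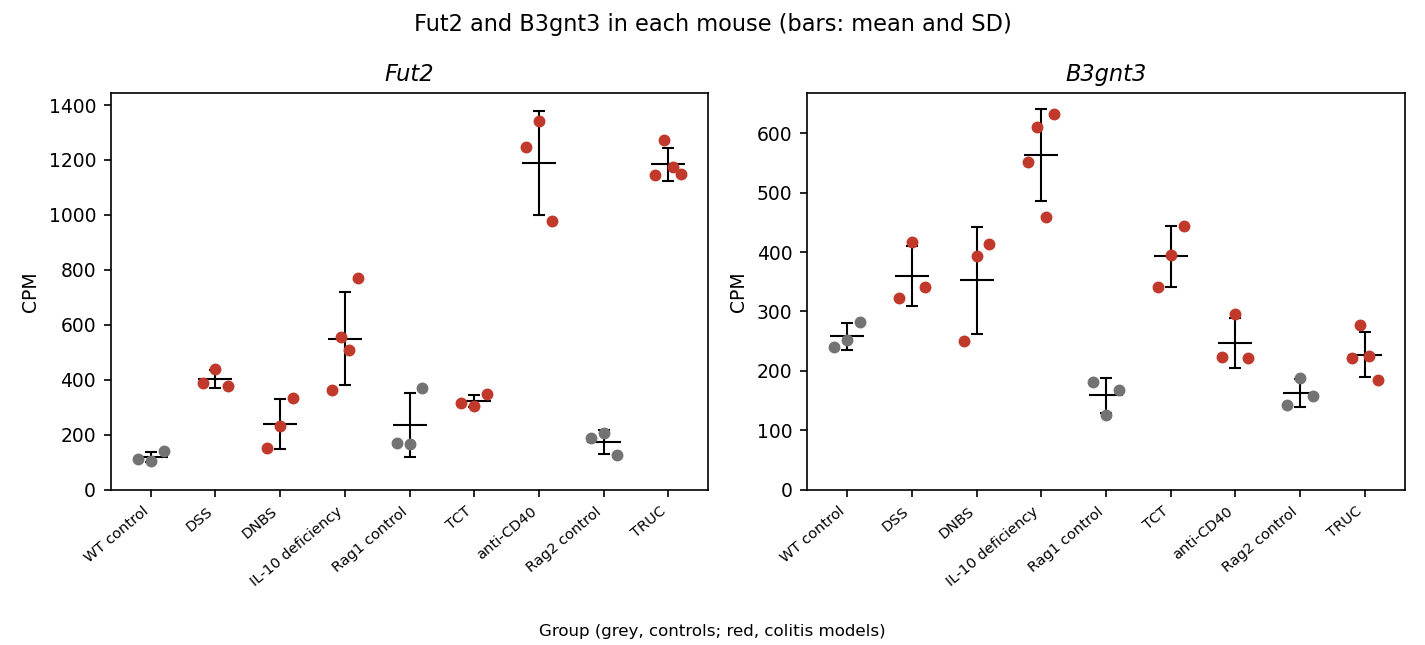
CPM of Fut2 (left) and B3gnt3 (right) in each mouse (points, grey for controls and red for colitis models) of the 9 groups, with the mean and SD of each group. The Fut2 points of TRUC and of the libraries labelled anti-CD40 lie above all others, and the highest B3gnt3 points are those of IL-10 deficiency.

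Since B3gnt3 was called in several models, the sequence ahead of its start is shown with a motif match. RefSeq promoters (GRCm38.p6) were found for 7 of the 10 members, and not for Fut2, C1galt1c1 and Gcnt3. In the 250 bases before each start, both strands were searched for STAT3 (TTCCNGGAA), HNF4A (CAAAGTCC), HOXB13 (CTCGTAAA) and CDX2 (TTTATNG). Of all 32851 promoters, 0.913% hold the STAT3 letters in such a window, 1.2% those of HNF4A, 0.11% those of HOXB13 and 9.81% those of CDX2. The B3gnt3 window (chr8:71701801-71702050, minus strand) holds no exon base of the annotation and has an HNF4A match 154 to 147 bases before the start, in capitals, and 1 of 4 Fut8 starts has a CDX2 match 144 to 138 bases before it. Such matches are a description of letters, not of binding.
B3gnt3: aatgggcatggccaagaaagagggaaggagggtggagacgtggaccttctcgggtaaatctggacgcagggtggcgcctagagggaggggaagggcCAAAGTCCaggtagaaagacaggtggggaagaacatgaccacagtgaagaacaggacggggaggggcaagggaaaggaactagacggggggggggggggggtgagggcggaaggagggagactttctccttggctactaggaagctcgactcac

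C1galt1 (ENSMUSG00000042460, chromosome 6, 7844842 to 7875687, plus strand) and C1galt1c1 (ENSMUSG00000048970, chromosome X, 38630785 to 38635087, minus strand) encode the core 1 galactosyltransferase and the chaperone it needs to fold, and both were called higher in the same 3 models. TRUC mice had 382, 404, 397 and 366 CPM of C1galt1 against 207, 241 and 199 CPM in the Rag2 controls. IL-10 deficiency mice had 311, 320.3, 307 and 389 CPM against 211, 215 and 233 CPM in the WT controls. The libraries labelled anti-CD40 had 308, 343 and 297 CPM against 209, 219.8 and 261 CPM in those labelled Rag1 control. Model and control did not overlap in these 3 comparisons, with log2 fold changes of 0.84 ± 0.11 (SE, adjusted p = 4.27e-06), 0.60 ± 0.11 (SE, adjusted p = 0.000114) and 0.46 ± 0.12 (SE, adjusted p = 0.00699). Without IL-10 deficiency mouse 4, the highest of its group, the second was 0.51 (adjusted p = 0.000466), and without anti-CD40 mouse 7 the third was 0.40 (adjusted p = 0.0528) and no longer called. In DSS the value was 0.047 ± 0.12 (SE, adjusted p = 0.789) with a 95% interval of -0.18 to 0.27, in TCT 0.17 ± 0.12 (SE, adjusted p = 0.297) and in DNBS 0.35 ± 0.12 (SE, adjusted p = 0.0709), the last being called without DNBS mouse 11 (0.47, adjusted p = 0.0107).

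C1galt1c1, the chaperone gene, rose most in IL-10 deficiency, where the mice had 91.5, 84.4, 81.4 and 126 CPM against 44.0, 45.9 and 37.7 CPM in the WT controls. TRUC mice had 59.1, 71.9, 78.2 and 66.1 CPM against 47.7, 55.0 and 49.2 CPM, and the libraries labelled anti-CD40 76.1, 69.7 and 55.3 CPM against 52.3, 41.2 and 44.3 CPM. No model mouse overlapped its controls here. The log2 fold changes were 1.17 ± 0.16 (SE, adjusted p = 3.41e-06), 0.44 ± 0.15 (SE, adjusted p = 0.0214) and 0.54 ± 0.16 (SE, adjusted p = 0.0194), and the first was 1.00 without mouse 4 (adjusted p = 9.12e-06). The TRUC call was lost without TRUC mouse 4 or Rag2 control mouse 1 or 4 (0.38 to 0.42, adjusted p of 0.0659 to 0.0803), and the anti-CD40 call without anti-CD40 mouse 6 or 7 or Rag1 control mouse 3 or 4 (0.44 to 0.52, adjusted p of 0.0572 to 0.0942). The libraries labelled anti-CD40 gave 0.40 (adjusted p = 0.0720) against the Rag2 controls. DNBS had 0.51 ± 0.16 (SE, adjusted p = 0.0608), called without DNBS mouse 11 (0.65, adjusted p = 0.0157), DSS -0.13 ± 0.16 (SE, adjusted p = 0.583) and TCT 0.040 ± 0.16 (SE, adjusted p = 0.886).

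Fut8 (ENSMUSG00000021065, chromosome 12, 77238125 to 77476338, plus strand) encodes the α1,6-fucosyltransferase that adds the core fucose of N-glycans, and was called higher in IL-10 deficiency, TRUC and DNBS. IL-10 deficiency mice had 207, 212, 213 and 147 CPM against 105, 94.4 and 98.8 CPM in the WT controls. TRUC mice had 171, 191, 189 and 171 CPM against 132, 144 and 102 CPM, and DNBS mice had 118, 194 and 159.6 CPM. All of these model mice were above their controls, IL-10 deficiency mouse 4 being the lowest of its group. The log2 fold changes were 0.97 ± 0.19 (SE, adjusted p = 0.000166), 0.52 ± 0.18 (SE, adjusted p = 0.0247) and 0.66 ± 0.19 (SE, adjusted p = 0.0437), and the first was 1.08 without mouse 4 (adjusted p = 6.94e-05). The TRUC call was lost without TRUC mouse 3 or 4 or Rag2 control mouse 4 (0.38 to 0.49, adjusted p of 0.0514 to 0.139), and the DNBS call without DNBS mouse 14 or 16 or any 1 of the WT control mice 1, 2 and 4 (0.49 to 0.71, adjusted p of 0.0985 to 0.213). The libraries labelled anti-CD40 had 209, 199.7 and 177 CPM against 143, 141 and 146 CPM, without overlap, and a log2 fold change of 0.45 ± 0.19 (SE, adjusted p = 0.101). Against the Rag2 controls it was called, at 0.63 (adjusted p = 0.0213), as it was on the 2 groups alone by edgeR (0.45, adjusted p = 0.0179) and DESeq2 (0.47, adjusted p = 0.00413). DSS had -0.0018 ± 0.19 (SE, adjusted p = 0.997) with a 95% interval of -0.38 to 0.38, and TCT -0.23 ± 0.19 (SE, adjusted p = 0.410).

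St6galnac6 (ENSMUSG00000026811, chromosome 2, 32599709 to 32620806, plus strand) encodes an α2,6-sialyltransferase that makes disialylated glycans. Per kilobase of exon it had the highest mean of the 10 members in the WT controls, 129 ± 3.49 CPM per kb (SD, n = 3), and Fut8 the lowest, 12.6 ± 0.666 CPM per kb (SD, n = 3). IL-10 deficiency mice had 873, 1059, 1044 and 1084 CPM against 620.3, 606 and 639 CPM in the WT controls. The libraries labelled anti-CD40 had 991, 996 and 1049 CPM against 842, 655 and 693 CPM in those labelled Rag1 control. Neither pair of groups overlapped, and the log2 fold changes were 0.71 ± 0.16 (SE, adjusted p = 0.000865) and 0.47 ± 0.17 (SE, adjusted p = 0.0486). The first was 0.67 without mouse 4 (adjusted p = 0.00224). The second was lost without any 1 of anti-CD40 mice 6, 7 and 8 and Rag1 control mice 3 and 4 (0.40 to 0.49, adjusted p of 0.0785 to 0.168), and against the Rag2 controls (0.35, adjusted p = 0.132). In DNBS the log2 fold change was 0.40 ± 0.17 (SE, adjusted p = 0.148), called without DNBS mouse 11 (0.53, adjusted p = 0.0494), and it was 0.12 in TRUC, -0.13 in DSS and -0.0027 in TCT, none of them called.

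**Figure D3:**
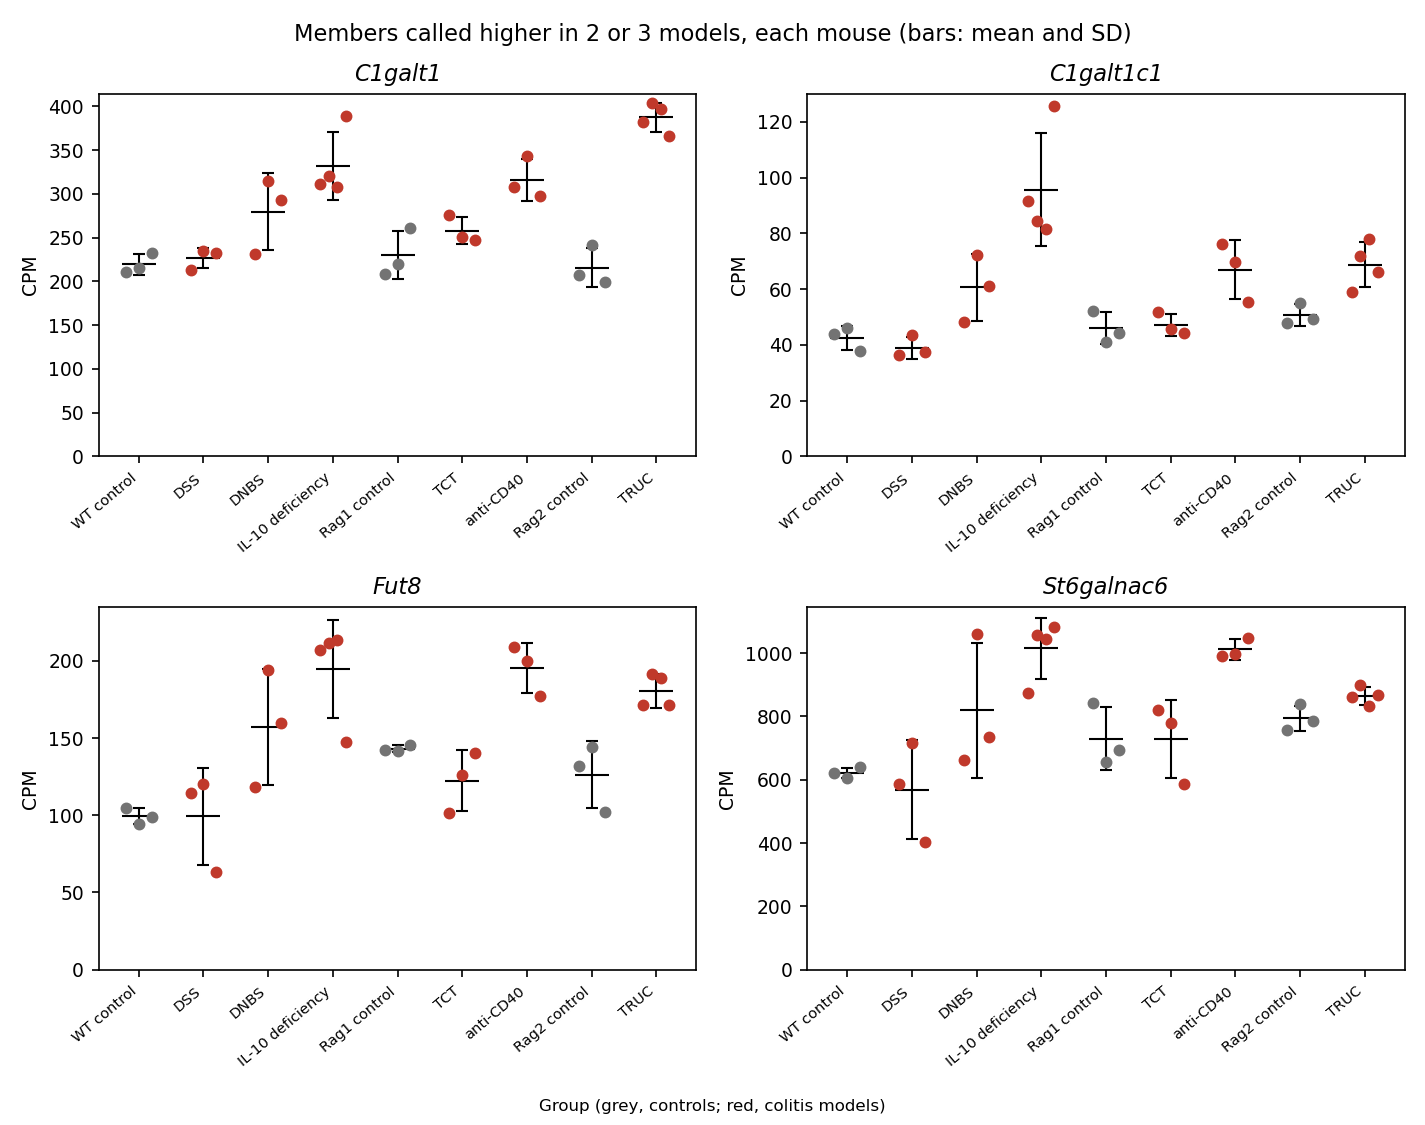
CPM of C1galt1, C1galt1c1, Fut8 and St6galnac6 in each mouse (points, grey for controls and red for colitis models) of the 9 groups, with the mean and SD of each group. IL-10 deficiency lies above the WT controls in all 4 panels, while DSS overlaps them in each.

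B4galnt2 (ENSMUSG00000013418, chromosome 11, 95865943 to 95914891, minus strand) encodes the N-acetylgalactosaminyltransferase of the Sda antigen, which caps sialylated chains in the colon, and was the only member called in both directions in the fit of all 9 groups. IL-10 deficiency mice 1 to 4 had 92.7, 111, 208 and 413 CPM, against 53.0, 41.7 and 60.8 CPM in the WT controls. All were above the controls, with mouse 4 far above the rest and mouse 3 next. Its log2 fold change fell from 1.99 ± 0.41 (SE, adjusted p = 0.000359) to 1.40 without mouse 4 (adjusted p = 0.00178) and 0.98 without mice 3 and 4 (adjusted p = 0.0231), the mice low in distal HOX genes. TCT mice had 30.4, 28.0 and 33.0 CPM, all below the 75.1, 59.6 and 124 CPM of the libraries labelled Rag1 control, with a log2 fold change of -1.50 ± 0.43 (SE, adjusted p = 0.00969). This call was lost without Rag1 control mouse 4 (-1.14, adjusted p = 0.0665) and against the WT controls (-0.77, adjusted p = 0.172). Goblet cell markers summed to 4338 to 7739 CPM in these TCT mice, against 10372 to 13516 CPM in the libraries labelled Rag1 control. In the WT controls they summed to 6174 to 7235 CPM, which overlaps the TCT mice. The part of goblet cells in the result was not tested. In the other models the log2 fold change was 0.63 ± 0.41 (SE, adjusted p = 0.288) in the libraries labelled anti-CD40, 0.027 in TRUC, 0.046 in DSS and -0.11 in DNBS, and none was called by edgeR, while DESeq2 on the 2 groups called the first higher (0.66, adjusted p = 0.0211). Gm11534 lies on the opposite strand over 263 exon bases of B4galnt2, and how the counting used strand is not given in the sources used here, so reads of the pair cannot be told apart there.

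Gcnt3 (ENSMUSG00000032226, chromosome 9, 70031496 to 70038088, minus strand) encodes a branching enzyme of mucin O-glycans that makes core 2 and core 4 structures, and fell in TRUC. The 4 TRUC mice had 53.1, 46.4, 53.7 and 58.1 CPM and the Rag2 controls 120.5, 117 and 114 CPM, so that every TRUC mouse was below every control, with a log2 fold change of -1.15 ± 0.27 (SE, adjusted p = 0.00132). The 8 goblet cell markers summed to 4794 to 6085 CPM in TRUC against 9984 to 11336 CPM in the Rag2 controls, and the 8 absorptive colonocyte markers to 2491 to 3282 CPM against 4711 to 5678 CPM. By single markers, 3 goblet cell and 5 colonocyte markers were called lower in TRUC, and 2 of each list were called higher. No marker of either list was at 0 in these groups, and the part of both cell types in the Gcnt3 difference was not tested. The Rag2 controls were the highest group for this gene, at 117 ± 3.49 CPM (SD, n = 3), beside 70.3 ± 4.11 CPM (SD, n = 3) in the WT controls, although that difference was not called (0.74 ± 0.29 (SE, adjusted p = 0.132)). IL-10 deficiency mice 1 to 3 had 69.2, 76.4 and 62.2 CPM and mouse 4 had 183 CPM. The log2 fold change of that group was 0.48 ± 0.27 (SE, adjusted p = 0.141), and -0.028 without mouse 4 (adjusted p = 0.914). DSS had 0.0012 with a 95% interval of -0.56 to 0.56, DNBS 0.0044, TCT -0.36 and the libraries labelled anti-CD40 -0.080, none called. Set against the Rag2 controls, the libraries labelled anti-CD40 were lower, with a log2 fold change of -0.82 (adjusted p = 0.0409).

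B3gnt7 (ENSMUSG00000079445, chromosome 1, 86302832 to 86307305, plus strand) encodes an N-acetylglucosaminyltransferase of long, sulfated lactosamine chains. IL-10 deficiency mice had 692, 887, 476 and 283 CPM against 306, 280.2 and 450.3 CPM in the WT controls, and mouse 4 was the only one within the control range. Its log2 fold change was 0.76 ± 0.26 (SE, adjusted p = 0.0159), rose to 0.98 without mouse 4 (adjusted p = 0.000639) and to 1.20 without mice 3 and 4 (adjusted p = 0.000126), and was not called without mouse 2 (0.49, adjusted p = 0.0956), WT control mouse 1 (0.68, adjusted p = 0.0673) or WT control mouse 2 (0.62, adjusted p = 0.0857). In TRUC and TCT, the goblet cell and colonocyte sums were also lower than in their own controls, although the TCT goblet cell sums overlapped those of the WT controls. The fit of all 9 groups called neither B3gnt7 difference in TRUC and TCT, while fits of the 2 groups alone called both lower. TRUC mice had 450.3, 449, 497 and 444 CPM against 582, 804 and 628 CPM, a log2 fold change of -0.54 ± 0.25 (SE, adjusted p = 0.0782), and -0.54 with edgeR on the 2 groups (adjusted p = 0.00105). TCT mice had 424, 394 and 309.7 CPM against 521, 455 and 739.8 CPM, a log2 fold change of -0.61 ± 0.27 (SE, adjusted p = 0.0939), -0.61 with edgeR on the 2 groups (adjusted p = 0.0309), and 0.12 against the WT controls (adjusted p = 0.761). B3gnt7 was higher in the Rag2 controls than in the WT controls, by 0.96 ± 0.27 (SE, adjusted p = 0.0269). Gm28626 overlaps 520 exon bases of B3gnt7 on the opposite strand, with the same limit as above. DESeq2 also called the fall in TRUC (-0.53, adjusted p = 1.66e-05) and TCT (-0.60, adjusted p = 0.0200), and did not call the rise in IL-10 deficiency (0.75, adjusted p = 0.0608), nor did edgeR on those 2 groups (0.75, adjusted p = 0.111). Upper quartile scaling called the fall in TRUC too (-0.65, adjusted p = 0.0320).

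Fut4 (ENSMUSG00000049307, chromosome 9, 14748320 to 14752393, minus strand) encodes an α1,3-fucosyltransferase of Lewis-type antigens, and was not called in any model by the fit of all 9 groups. TRUC mice had 109, 107, 113 and 122 CPM, all below the 141, 168 and 162 CPM of the Rag2 controls, and DSS mice had 90.8, 106 and 77.1 CPM, all below the 131, 115 and 157 CPM of the WT controls. The log2 fold changes were -0.48 ± 0.35 (SE, adjusted p = 0.270) and -0.56 ± 0.38 (SE, adjusted p = 0.263) in the fit of all 9 groups, and a fit of the 2 groups alone called both lower (-0.48, adjusted p = 0.000560, and -0.55, adjusted p = 0.0483). IL-10 deficiency mice 1 to 3 had 155, 173 and 119.6 CPM, within or above the control range, and mouse 4 had 21.2 CPM, the lowest value of the 29 mice. The log2 fold change turned from -0.20 (adjusted p = 0.656) to 0.15 without mouse 4 (adjusted p = 0.505). It was -0.16 in the libraries labelled anti-CD40, -0.13 in TCT and 0.080 in DNBS.

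**Figure D4:**
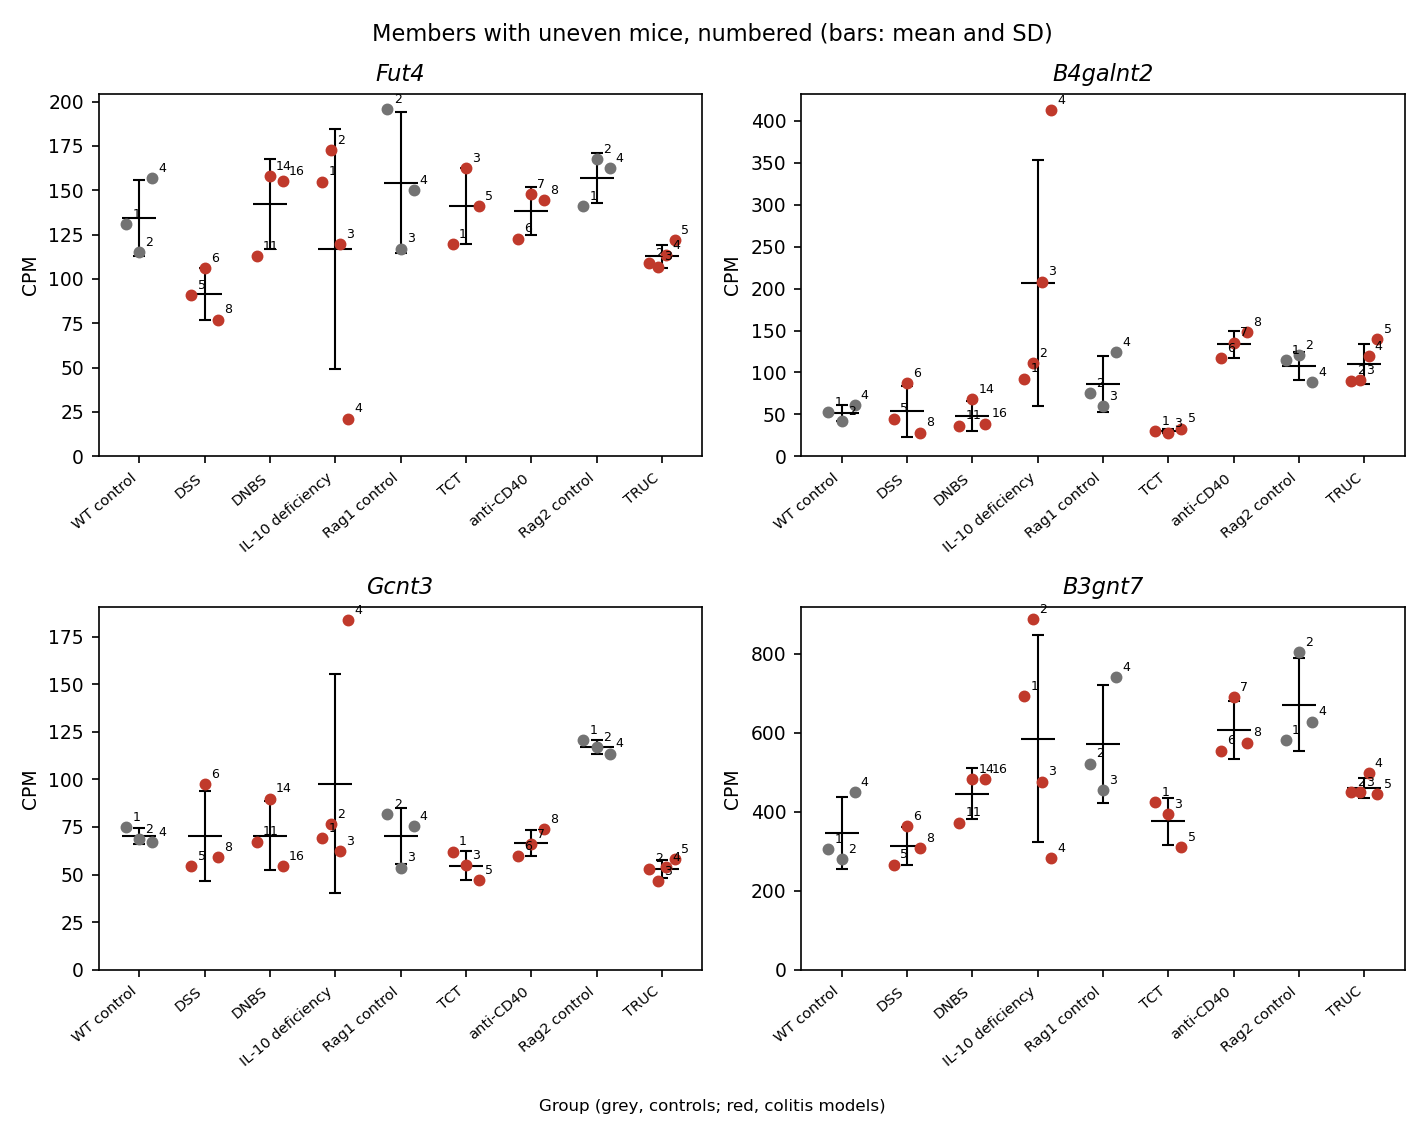
CPM of Fut4, B4galnt2, Gcnt3 and B3gnt7 in each mouse (points with mouse numbers, grey for controls and red for colitis models) of the 9 groups, with the mean and SD of each group. IL-10 deficiency mouse 4 is the lowest of the 29 mice for Fut4 and the highest for B4galnt2 and Gcnt3, and is below the rest of its group for B3gnt7.

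Other fits ended some calls near the threshold. Those of Fut2 and Fut8 in DNBS were lost with edgeR on the 2 groups (1.01, adjusted p = 0.0719, and 0.66, adjusted p = 0.0735). Upper quartile scaling lost Fut8 in DNBS (0.58, adjusted p = 0.0721), St6galnac6 in the libraries labelled anti-CD40 (0.41, adjusted p = 0.0875), and B3gnt3 (0.38, adjusted p = 0.0594), C1galt1c1 (0.33, adjusted p = 0.0662) and Fut8 (0.41, adjusted p = 0.0690) in TRUC.

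The genes whose pattern was most like that of each member were found by Pearson's correlation of log2 CPM over the 29 mice, among 15415 other genes with a mean of at least 1 CPM, as a description without a test, since mice share groups and cell makeup. Fut4 was most like Hoxb13 (r = 0.925) and Hoxa13 (r = 0.921), followed by Gm27605 (r = 0.899). These values rested in part on IL-10 deficiency mouse 4, and were 0.731 for Hoxb13 and 0.676 for Hoxa13 over the 28 mice without it. Fut2 was most like Atp10b (r = 0.959), Zdhhc13 (r = 0.944) and Cpne2 (r = 0.937), and B3gnt3 like F2rl1 (r = 0.943), Capns1 (r = 0.942) and Ppih (r = 0.930). C1galt1 was most like Tpd52 (r = 0.951), Pgm2 (r = 0.943) and Zdhhc9 (r = 0.938), and C1galt1c1 like Ift20 (r = 0.946), Dnpep (r = 0.942) and Mrps33 (r = 0.941). Other glycosylation genes led for B3gnt7, which was most like Mgat5 (r = 0.871), a branching enzyme of N-glycans, then Atp1b1 (r = 0.823) and Mical2 (r = 0.823). St6galnac6 was most like Galnt12 (r = 0.916), an enzyme that starts O-glycans, then Tax1bp3 (r = 0.903) and Lpin3 (r = 0.888). Fut8 was most like Slc39a11 (r = 0.906) and Pigt (r = 0.894), B4galnt2 like Trp53inp2 (r = 0.883), Lurap1l (r = 0.879) and Fuom (r = 0.878), and Gcnt3, with the lowest leading value, like Tprgl (r = 0.790), Nudt16 (r = 0.778) and Adtrp (r = 0.774).

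The size of change was also compared between models. Whether a member changed by the same amount in the 6 models was asked by an F test of equal log2 fold changes in the fit of all groups. It was called for 9 of 10 members, with adjusted p from 8.11e-06 for C1galt1c1 to 0.0172 for Gcnt3, while 60.5% of all genes tested were called. The value for Fut4 was 0.670, and 0.0113 without IL-10 deficiency mouse 4.

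Models with the same control were then compared directly. Between DSS and DNBS, where 22.6% of all genes were called, 3 members were lower in DSS, namely Fut8 (-0.66 ± 0.19 (SE, adjusted p = 0.0168)), C1galt1c1 (-0.63 ± 0.16 (SE, adjusted p = 0.00761)) and St6galnac6 (-0.53 ± 0.17 (SE, adjusted p = 0.0276)). The calls of Fut8 and St6galnac6 were lost without DSS mouse 8 (-0.42, adjusted p = 0.137, and -0.33, adjusted p = 0.207) or DNBS mouse 14 (-0.50, adjusted p = 0.10, and -0.31, adjusted p = 0.201). C1galt1 was called lower too without DNBS mouse 11 (-0.43, adjusted p = 0.0121), and Fut2 higher without DNBS mouse 16 (1.05, adjusted p = 0.0168). In DSS, 7 members were lower than in IL-10 deficiency, against 49.8% of all genes called in either direction, led by B4galnt2 (-1.95 ± 0.41 (SE, adjusted p = 0.000425)) and C1galt1c1 (-1.29 ± 0.16 (SE, adjusted p = 8.85e-07)). Fut2 was not among the 7 (-0.45 ± 0.26 (SE, adjusted p = 0.164)), and Fut4 became so without IL-10 deficiency mouse 4 (-0.71, adjusted p = 0.00210) and Gcnt3 without DSS mouse 6 (-0.77, adjusted p = 0.0357). The 7 calls held without IL-10 deficiency mouse 4, with B4galnt2 at -1.36 (adjusted p = 0.00215) and C1galt1c1 at -1.14 (adjusted p = 1.84e-06). In DNBS, 4 members were lower than in IL-10 deficiency, against 33.9% of all genes called, namely Fut2 (-1.20 ± 0.27 (SE, adjusted p = 0.00189)), B4galnt2 (-2.10 ± 0.41 (SE, adjusted p = 0.000619)), C1galt1c1 (-0.66 ± 0.15 (SE, adjusted p = 0.00228)) and B3gnt3 (-0.68 ± 0.18 (SE, adjusted p = 0.00547)). The 4 calls held without IL-10 deficiency mouse 4, with B4galnt2 at -1.50 (adjusted p = 0.00248), and the B3gnt3 call was lost without DNBS mouse 11 (-0.47, adjusted p = 0.0663). B3gnt7 was called without IL-10 deficiency mouse 4 (-0.61, adjusted p = 0.0342), and C1galt1 (-0.33, adjusted p = 0.0468) and St6galnac6 (-0.52, adjusted p = 0.0197) without DNBS mouse 14.

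TCT and the libraries labelled anti-CD40 differed in 5 members, where 18.4% of all genes were called. Fut2 (-1.88 ± 0.29 (SE, adjusted p = 4.29e-05)), B4galnt2 (-2.13 ± 0.43 (SE, adjusted p = 0.000995)), Fut8 (-0.67 ± 0.19 (SE, adjusted p = 0.0168)) and C1galt1c1 (-0.50 ± 0.16 (SE, adjusted p = 0.0318)) were lower in TCT, and B3gnt3 was higher (0.67 ± 0.19 (SE, adjusted p = 0.0136)). The Fut8 call was lost without TCT mouse 1 or anti-CD40 mouse 6 (-0.62 to -0.55, adjusted p of 0.0605 to 0.0898), that of C1galt1c1 without TCT mouse 3 or 5 or anti-CD40 mouse 6 or 7 (-0.48 to -0.40, adjusted p of 0.0920 to 0.148), and that of B3gnt3 without TCT mouse 5 or anti-CD40 mouse 6 or 8 (0.58 to 0.60, adjusted p of 0.0539 to 0.0644). St6galnac6 was called lower without TCT mouse 1 (-0.57, adjusted p = 0.0482). These groups also differed in H2-Ea-ps and Rag2 transcripts, and the parts of treatment and mouse background cannot be told apart.

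Among untreated mice, 2 members differed between the Rag2 controls and the WT controls, B3gnt3 and B3gnt7, against 8.11% of all genes. The B3gnt3 call was lost without WT control mouse 2 or 4 or Rag2 control mouse 1 or 4 (-0.70 to -0.58, adjusted p of 0.0518 to 0.123), and that of B3gnt7 without WT control mouse 1 or 2 or Rag2 control mouse 2 or 4 (0.81 to 1.00, adjusted p of 0.0508 to 0.145). Likewise 2 differed between the libraries labelled Rag1 control and the WT controls, against 10.9% of all genes, with B3gnt3 lower and Fut2 higher (0.98 ± 0.28 (SE, adjusted p = 0.0246)). The Fut2 call was lost without WT control mouse 1 (0.94, adjusted p = 0.0935), WT control mouse 2 (0.88, adjusted p = 0.12) or Rag1 control mouse 4 (0.48, adjusted p = 0.344). The B3gnt3 call was lost without WT control mouse 4 (-0.63, adjusted p = 0.0573) or Rag1 control mouse 3 (-0.58, adjusted p = 0.0864), and B3gnt7 was called higher without WT control mouse 4 (0.96, adjusted p = 0.0435).

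Each member was finally set against epithelium, by scaling each library by the summed counts of the 10 epithelial markers in place of TMM. Fut2 was called higher in TRUC, DSS, DNBS, IL-10 deficiency and the libraries labelled anti-CD40, the 5 models in which it was called with TMM. It was higher by 2.55 in TRUC (adjusted p = 3.88e-08), 2.19 in DSS (adjusted p = 9.81e-07), 2.08 in the libraries labelled anti-CD40 (adjusted p = 6.04e-06), 1.55 in IL-10 deficiency (adjusted p = 5.17e-06) and 0.84 in DNBS (adjusted p = 0.0465), on the log2 scale. The DNBS call was lost without DNBS mouse 14 or 16 or any 1 of the WT controls (0.65 to 0.90, adjusted p of 0.0785 to 0.252). In TCT the value was 0.30 (adjusted p = 0.355), and 0.77 without Rag1 control mouse 4 (adjusted p = 0.00764). This scaling moves all genes, whose median became -0.64 in IL-10 deficiency, -0.29 in the libraries labelled anti-CD40, -0.25 in TRUC, -0.18 in TCT, -0.13 in DNBS and 0.45 in DSS.

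Of the other 9 members, fewer were called relative to epithelium than with TMM in 4 models, and more in DSS and TCT. In IL-10 deficiency, where 63.8% of all genes were called in either direction, 4 members were higher, namely Fut2, B4galnt2 (1.31, adjusted p = 0.00254), C1galt1c1 (0.51, adjusted p = 0.00246) and B3gnt3 (0.49, adjusted p = 0.00668). C1galt1, at -0.041 (adjusted p = 0.755), and St6galnac6, at 0.073 (adjusted p = 0.662), were no longer called. Without mouse 4 of that group the 4 stayed called, with Fut2 at 1.45 (adjusted p = 2.36e-05) and B4galnt2 at 0.89 (adjusted p = 0.0198), and Fut8 (0.54, adjusted p = 0.00977) and B3gnt7 (0.44, adjusted p = 0.0274) were called higher and Gcnt3 (-0.58, adjusted p = 0.00906) and Fut4 (-0.40, adjusted p = 0.0213) lower. Fut4 was also called lower without mouse 1 (-0.98, adjusted p = 0.0295) or mouse 2 (-0.93, adjusted p = 0.0424). Without mice 3 and 4 the B4galnt2 value fell to 0.39 and was not called (adjusted p = 0.288).

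In TRUC, where 43.4% of all genes were called on this scale, Fut2 and C1galt1 (0.63, adjusted p = 0.000101) were higher and Gcnt3 (-1.37, adjusted p = 4.69e-05) and B3gnt7 (-0.76, adjusted p = 0.0144) lower, the last not without Rag2 control mouse 2 (-0.65, adjusted p = 0.0660). DSS, with 45.6% of all genes called, had Fut2, B3gnt3 (0.89, adjusted p = 0.000128) and C1galt1 (0.47, adjusted p = 0.00210) higher, and Fut8 too without DSS mouse 8 (0.57, adjusted p = 0.0431). Scaled by 3 epithelial markers in place of 10, C1galt1 in DSS (0.25, adjusted p = 0.0628) and B3gnt7 in TCT (-0.53, adjusted p = 0.141) were not called, and B3gnt3 was called higher in TRUC (0.39, adjusted p = 0.0338) and the libraries labelled anti-CD40 (0.46, adjusted p = 0.0386). In TCT, with 29% of all genes called, B3gnt3 was higher (1.15, adjusted p = 7.77e-06) and B4galnt2 (-1.66, adjusted p = 0.00161) and B3gnt7 (-0.78, adjusted p = 0.0272) lower. The B3gnt7 call was lost without TCT mouse 3 or 5 or Rag1 control mouse 4 (-0.79 to -0.57, adjusted p of 0.0683 to 0.154). Fut2 was the 1 member called in DNBS, with 3.42% of all genes called, and also in the anti-CD40 libraries so labelled, where 23.6% were called. On the TMM scale 2 and 5 members, respectively, had been called there.

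**Figure D5:**
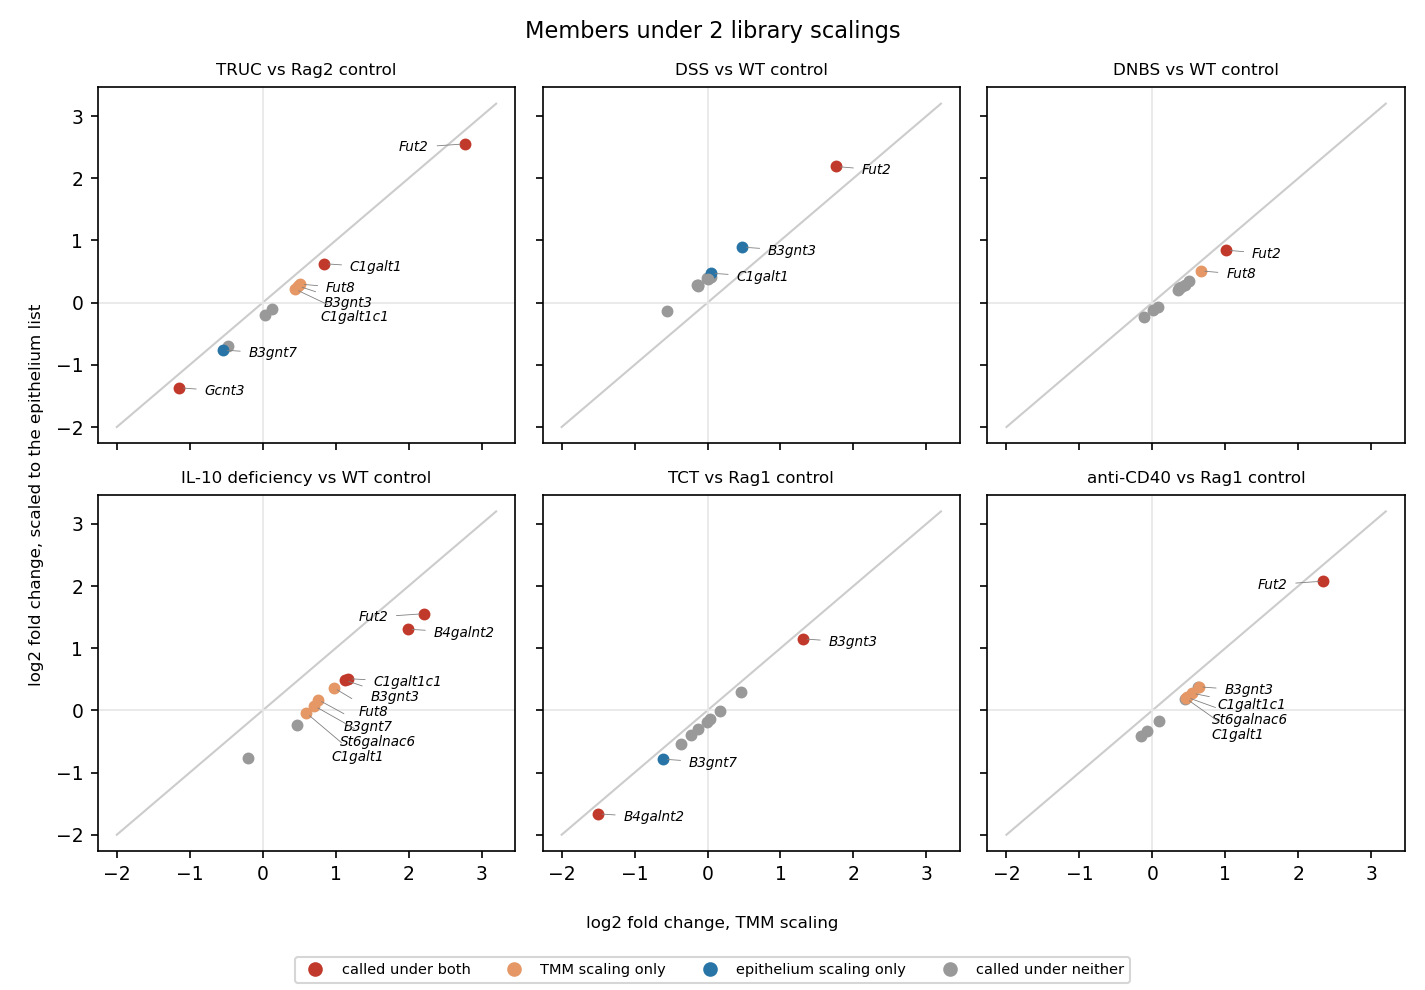
Log2 fold change of each member (points) in each model against its control (panels), scaled by TMM (horizontal axis) and by the 10 epithelial markers (vertical axis), coloured by the scalings under which it was called, with a grey line of equal values. Points lie above the line in DSS and below it in the other 5 models, where Fut2 in TRUC moves from 2.77 to 2.55.

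The other genes of glycan synthesis were described by 9 lists of 88 genes, 81 of which were tested. Of these, 22 were higher and 22 lower in TRUC, 22 and 19 in DSS, 10 and 0 in DNBS, 27 and 15 in IL-10 deficiency, 17 and 14 in TCT, and 14 and 5 in the libraries labelled anti-CD40. In percent, 27.2 were higher in TRUC beside 22.4 of all genes, 27.2 in DSS beside 17.7, 12.3 in DNBS beside 3.95, 33.3 in IL-10 deficiency beside 27.2, 21 in TCT beside 16.1 and 17.3 in the libraries labelled anti-CD40 beside 10.9. Lower were 27.2% in TRUC beside 23.4%, 23.5% in DSS beside 16.3% and 17.3% in TCT beside 14%. In IL-10 deficiency 18.5% were lower beside 26.1%, with the anti-CD40 label 6.17% beside 10.7% and in DNBS 0% beside 2.21%. The shares called higher were thus above those of all genes in all 6 models, while those called lower lay on either side. Whether the lists differ from all genes was not tested. Without IL-10 deficiency mouse 4, 28 were higher and 14 lower in that model. Galnt1 and Galnt3, which attach the first N-acetylgalactosamine of O-glycans, were called higher in all 6 models, by 0.42 to 0.90 and 0.69 to 1.80 on the log2 scale. Mgat2, a branching enzyme of N-glycans (0.38 to 0.88), and B4galnt4, an N-acetylgalactosaminyltransferase (1.20 to 2.46), were also higher in all 6. Gmds, the first enzyme of GDP-fucose synthesis and so of the donor that the fucosyltransferases use, was higher in 5 models, as were B4galnt1, of ganglioside synthesis, and Mgat4c, of N-glycan branching. Galnt17 was lower in 5 models. How many of all genes tested were called in the same direction in 5 or 6 models is not given here. Models with the same control also share its mice, so this recurrence cannot be judged.

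By list, 5 of 6 genes of GDP-fucose supply were higher in IL-10 deficiency and 3 of 6 in TRUC, with medians of 0.58 and 0.16 beside -0.014 and -0.030 for all genes tested. Without IL-10 deficiency mouse 4 the first count was again 5 of 6, with a median of 0.65. In DSS 0 of the 6 were higher and 2 lower, with a median of -0.26 beside 0.024. Of 12 sialyltransferases, 6 were lower and 1 was higher in TRUC, with a median of -0.67 beside -0.030, and 4 were higher and 1 was lower in DSS, with a median of 0.095. Of 8 other fucosyltransferases, 3 were higher and 3 lower in each of DSS and IL-10 deficiency, and 2 and 3 in the latter without mouse 4. The largest rises of the lists in DSS were those of Mgat4c, at 144 ± 54.0 CPM against 16.5 ± 2.08 CPM (SD, n = 3 each), a log2 fold change of 3.12 ± 0.48 (SE, adjusted p = 4.79e-05), and of the sialyltransferase gene St3gal1, 2.19 ± 0.43 (SE, adjusted p = 0.000457). The largest falls were those of the fucosyltransferase gene Fut9, -3.83 ± 0.63 (SE, adjusted p = 9.40e-05), and the sulfotransferase gene Gal3st1, -2.32 ± 0.30 (SE, adjusted p = 7.06e-06).

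Mgat4c also rose most in DNBS, 2.27 ± 0.47 (SE, adjusted p = 0.00804), and IL-10 deficiency, 5.08 ± 0.52 (SE, adjusted p = 2.07e-07). The other large rise in both was that of the branching enzyme gene Gcnt4, 1.94 ± 0.58 (SE, adjusted p = 0.0465) and 2.60 ± 0.56 (SE, adjusted p = 0.000544). Without IL-10 deficiency mouse 4 these rises were smaller, 4.42 for Mgat4c (adjusted p = 7.34e-08) and 1.60 for Gcnt4 (adjusted p = 0.00388), and the falls of Galnt17 and Fut9 were -3.99 (adjusted p = 2.79e-05) and -1.81 (adjusted p = 0.000734). Galnt17, -4.00 ± 0.55 (SE, adjusted p = 4.53e-06), and Fut9, -2.20 ± 0.53 (SE, adjusted p = 0.00136), fell most in IL-10 deficiency, and 0 list genes were called lower in DNBS by edgeR, with 2 at an unadjusted p under 0.05. In TRUC, Gcnt4 rose by 3.21 ± 0.57 (SE, adjusted p = 0.000122), and Galnt17, -3.64 ± 0.54 (SE, adjusted p = 1.90e-05), and the sialyltransferase gene St3gal3, -2.59 ± 0.37 (SE, adjusted p = 1.08e-05), fell most. Sec1, at 3.87 ± 0.373 CPM in TRUC and 2.37 ± 0.876 CPM in the libraries labelled anti-CD40, was called in both, with at most 2 and 3 counts in any control mouse, at the floor. The libraries labelled anti-CD40 also rose in Mgat4c, 1.38 ± 0.45 (SE, adjusted p = 0.0294), and fell in Galnt17, -3.85 ± 0.61 (SE, adjusted p = 0.000159), and St3gal3, -1.74 ± 0.39 (SE, adjusted p = 0.00301). Untreated groups lay apart for Mgat4c too, at 136 ± 11.2 CPM (SD) in the libraries labelled Rag1 control and 16.5 ± 2.08 CPM (SD) in the WT controls. The part of mouse background in its level was not tested.

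In TCT, the sialyltransferase gene St3gal4 was at 388 ± 71.8 CPM against 4.38 ± 0.438 CPM in the libraries labelled Rag1 control, a log2 fold change of 6.47 ± 0.24 (SE, adjusted p = 3.43e-16). Its level followed the split seen in H2-Ea-ps, with 205 ± 3.98 CPM in the WT controls, 11.4 ± 1.88 CPM in TRUC, 4.37 ± 1.08 CPM in the Rag2 controls and 4.51 ± 0.254 CPM in the libraries labelled anti-CD40, so treatment and mouse background cannot be told apart for it. B4galnt1 also rose in TCT, 2.80 ± 0.45 (SE, adjusted p = 4.19e-05), and Galnt17, -2.77 ± 0.56 (SE, adjusted p = 0.000563), and Fut9, -2.32 ± 0.57 (SE, adjusted p = 0.00337), fell.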

How the data were processed

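RNA of whole colon from 29 mice in 9 groups was analysed from 1 deposited table of raw counts per Ensembl gene, which the authors had made from sequencing reads. The submitters' processing notes name Trimmomatic, HISAT2, HTSeq and GRCm38, and versions, annotation release and strand setting are not given in the sources used here. All 92 spike-in entries had a total of 0 counts and were left out. A minimum mean count of 3 left 18616 of 54532 genes, which were scaled by TMM and tested in 1 fit of all 9 groups with edgeR 4.0.16 (quasi-likelihood) in R 4.3.3, with Benjamini-Hochberg adjusted p-values across these genes and a threshold of 0.05. SEs were taken as the absolute log2 fold change over the square root of F. DESeq2 1.42.0 was the alternative tool, and edgeR used limma 3.58.1. Scripts were tested on simulated data.

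Libraries held 10725564 to 14977094 counts (median 12287039). Replicates were distinct libraries, since the 33 pairs within groups differed by 3.46 or more times what sampling gives. Nothing in the labels says that mice were housed or processed separately, so p-values measure the spread between these mice. Each colitis model was compared with its own control, models sharing a control share its mice, and alternatives replaced scaling, filter, tool, control group and single mice. Groups and mouse numbers come from the labels.

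The members and lists were chosen with earlier results of these data known. Named were all members, list genes called in 1 direction in at least 5 of 6 models, the 2 largest rises and falls per model among list genes with a mean of at least 1 CPM, and the 3 genes most like each member, of which 1 is not reported here. H2-Ea-ps, Rag1, Rag2 and the HOX genes were chosen after their values were seen. Too few same-numbered mice of a model and its control could be compared to tell whether they share deviations. Positions are from GENCODE M21 on GRCm38 and promoters from RefSeq on GRCm38.p6.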

Additional observations from a re-analysis of the deposited data

Results flagged for a closer look

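In groups of 4 mice, a mouse was singled out where its gap to the nearest other exceeded Dixon's critical value of the group's range, and chance alone singles out about 1 in 20 groups, with 20 groups examined here. IL-10 deficiency mouse 4 stood apart for Fut8 at 147 CPM, below the rest of its group, for C1galt1 at 389 CPM and for Gcnt3 at 183 CPM, both above the rest. It is also the mouse nearly without distal HOX transcripts, and the part of that in these values was not tested. TRUC mouse 4 stood apart for B3gnt7 at 497 CPM, above the rest of its group.

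The change differed between the 6 models by the edgeR F test of equal log2 fold changes for 9 members, in that the adjusted p passed the threshold. It was 2.03e-05 for Fut2, 2.56e-05 for B4galnt2, 8.11e-06 for C1galt1c1, 0.000289 for C1galt1 and 0.000379 for Fut8. It was 0.000845 for B3gnt3, 0.00110 for St6galnac6, 0.00444 for B3gnt7 and 0.0172 for Gcnt3. Of all genes tested, 60.5% passed.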

How the results depend on the processing

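Of 2190 member values recomputed under other settings, 1950 kept their direction and side of the threshold, 88 lost a call, 59 gained one and 93 changed sign, all 93 with neither value called. In DNBS, leaving out 1 mouse gave 0 to 6 members called higher. With the WT controls as reference TCT kept its B3gnt3 call, gained that of Fut2 and lost that of B4galnt2. Each member had far more counts than the floor of 3, and the part of depth in these changes was not tested. The cause of each change below was not tested. Fits that leave mice out hold fewer mice, and fits of 2 groups keep the mice of those groups but leave out all other groups. Values are log2 fold changes, or numbers of genes called higher or lower. With RLE size factors, DSS had Fut8 0.021 and 2 called higher, DNBS had Gcnt3 -0.00022, DSS against DNBS had Gcnt3 0.027 and 1 called higher and Rag1 control against WT control had Gcnt3 -0.0097. With upper quartile scaling, TRUC had B4galnt2 -0.078, 2 called higher and 2 called lower, DSS had Gcnt3 -0.040, DNBS had Gcnt3 -0.068 and 1 called higher, DSS against DNBS had Gcnt3 0.028 and 1 called higher, Rag1 control against WT control had C1galt1 -0.030 and Gcnt3 -0.10 and the other glycosylation genes in DNBS had 5 called higher. With no filter on low counts, DSS had Fut8 0.037 and 2 called higher, DSS against DNBS had Gcnt3 0.018 and 1 called higher, TCT against anti-CD40 had Fut4 -0.0016 and Rag1 control against WT control had Gcnt3 -0.0079. With edgeR's filterByExpr, DSS had Fut8 0.048 and 2 called higher, DSS against DNBS had Gcnt3 0.037 and 1 called higher and Rag1 control against WT control had Gcnt3 -0.016. With 3 epithelial markers, TRUC relative to epithelium had St6galnac6 0.028, IL-10 deficiency relative to epithelium had C1galt1 0.026, TCT relative to epithelium had C1galt1 0.24, C1galt1c1 0.11, St6galnac6 0.070 and 1 called lower and anti-CD40 relative to epithelium had 2 called higher. With edgeR on the model and its control alone, TRUC had 3 called lower, DSS had Fut8 0.0024, Gcnt3 -0.0021, 2 called higher and 1 called lower, DNBS had 0 called higher and TCT had 2 called lower. With DESeq2 on the model and its control alone, TRUC had 3 called lower, DSS had Gcnt3 -0.013, 2 called higher and 1 called lower and TCT had St6galnac6 0.0050 and 2 called lower. With the WT controls as reference, TCT had Fut4 0.071, Fut8 0.30, B3gnt7 0.12, St6galnac6 0.23, 2 called higher and 0 called lower. With the Rag2 controls as reference, anti-CD40 had B3gnt7 -0.15 and 1 called lower. Without IL-10 deficiency mice 3 and 4, IL-10 deficiency had Fut4 0.29 and IL-10 deficiency relative to epithelium had 1 called lower.

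Leaving out each mouse in turn gave the following ranges. DSS had -0.16 to 0.24 for Fut8, -0.50 to 0.35 for B4galnt2, -0.31 to 0.15 for Gcnt3, -0.28 to 0.093 for B3gnt7, -0.33 to 0.068 for St6galnac6 and 1 to 2 called higher. DNBS had -0.018 to 0.22 for Fut4, -0.45 to 0.053 for B4galnt2, -0.20 to 0.16 for Gcnt3 and 0 to 6 called higher. IL-10 deficiency had -0.44 to 0.15 for Fut4 and -0.028 to 0.64 for Gcnt3. Rag2 control against WT control had -0.11 to 0.030 for C1galt1, 0 to 1 called higher and 0 to 1 called lower. Rag1 control against WT control had -0.022 to 0.35 for Fut4, -0.048 to 0.12 for C1galt1, -0.0096 to 0.17 for C1galt1c1, -0.14 to 0.15 for Gcnt3, 0 to 2 called higher and 0 to 1 called lower. DNBS relative to epithelium had -0.17 to 0.015 for Fut4, -0.35 to 0.10 for Gcnt3 and 0 to 1 called higher. IL-10 deficiency relative to epithelium had -0.035 to 0.44 for B3gnt7, -0.0072 to 0.12 for St6galnac6 and 0 to 2 called lower. TCT had -0.29 to 0.087 for Fut4, -0.030 to 0.15 for C1galt1c1, -0.10 to 0.13 for St6galnac6, 1 to 2 called higher and 0 to 1 called lower. Anti-CD40 had -0.32 to 0.049 for Fut4, -0.24 to 0.043 for Gcnt3, -0.054 to 0.31 for B3gnt7 and 1 to 5 called higher. TCT relative to epithelium had -0.10 to 0.076 for C1galt1, 1 to 2 called higher and 1 to 2 called lower. Anti-CD40 relative to epithelium had -0.28 to 0.040 for B3gnt7. TRUC had -0.11 to 0.12 for B4galnt2 and 2 to 5 called higher. TRUC relative to epithelium had 1 to 2 called lower. DSS against IL-10 deficiency had -0.77 to 0.016 for Gcnt3. DNBS against IL-10 deficiency had -0.059 to 0.52 for Fut4 and -0.67 to 0.036 for Gcnt3. TCT against anti-CD40 had -0.076 to 0.13 for Fut4, 0 to 1 called higher and 2 to 4 called lower. DSS against DNBS had -0.39 to 0.48 for B4galnt2, -0.32 to 0.20 for Gcnt3, -0.17 to 0.15 for B3gnt3, 0 to 1 called higher and 1 to 4 called lower.

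With the replicate block, TRUC had B4galnt2 -0.0017 and 3 called lower. Calls of Fut4 (-0.58, adjusted p = 0.00382) and B3gnt7 (-0.59, adjusted p = 0.00792) were gained there and that of C1galt1c1 lost (0.38, adjusted p = 0.0661), and in IL-10 deficiency the block lost B3gnt7 (0.74, adjusted p = 0.232), and it changed no other call. Deviations of same-numbered mice had correlations of -0.020 to 0.056 in IL-10 deficiency and -0.052 to -0.0055 in TRUC. So few pairs, with deviations taken within groups of 3 or 4 mice, cannot tell whether the mice share more than a number. For the other 4 models no paired analysis was possible because TCT shares only number 3 with its control and DSS, DNBS and anti-CD40 share none. Leaving out IL-10 deficiency mice 3 and 4 together was chosen after seeing the data.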
